A study of Mus musculus with 9 samples.

Results

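Growing C2C12 myoblasts were compared between 3 genotypes at day 0, the start of differentiation: a control, a Cry1 knockdown and a Cry2 knockdown. The members are the 3 libraries that the labels place at day 0, of 9 in the series. The other 6 libraries, the same genotypes at days 3 and 5, were used only to see which day 0 differences came back. C2C12 is an established line of mouse myoblasts, cells that divide in rich serum and fuse into contractile myotubes when serum is poor. Per the labels, all cultures grew in DMEM with 10% fetal bovine serum and were seeded 2 days before day 0. On day 0 the medium became 5% horse serum with 1% insulin, transferrin and selenium. Whether the day 0 cells were taken before or after that change, how the knockdowns were made, and what the control received are not given in the sources used here.

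Cry1 and Cry2 encode cryptochromes, which bind the CLOCK and BMAL1 activator pair and hold down its targets, among them the Per genes and Cry1 itself. Myoblasts leave the cell cycle when MyoD and the Mef2 factors switch on myogenin, which in turn drives the genes of the sarcomere, the contractile unit of muscle. The study asked how the cryptochromes act on this differentiation, with cyclin D1 (Ccnd1) and Tmem176b as target genes and Bclaf1 as an RNA-binding partner.

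Each genotype has 1 library at day 0, so no difference here has a replicate check and no p-value is given. What the knockdown did and what set one culture off from another cannot be told apart. Levels are normalised CPM, that is reads of a gene scaled to library size, and a ratio is the log2 ratio of a knockdown to the control with 1 count added per library, so that a log2 ratio of 1 is 2-fold. Brackets hold 95% exact counting intervals, which cover counting error only. The libraries held 6412279 counts in the control, 6402164 in the Cry1 knockdown and 5814077 in the Cry2 knockdown. For a gene at 0 counts the data allow as many as 3, which equals 0.439, 0.444 and 0.484 CPM. Of 47728 genes in the files, 20574 had a count at day 0 and 12812 reached a mean of 1 CPM over the 3 libraries. These 12812 are called measured. Mitochondrial genes took 0.695%, 0.921% and 1.22% of the counts.

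The label of growing myoblasts was checked against marker genes. Mki67, a marker of dividing cells, had 281, 300 and 237 CPM in the control, Cry1 and Cry2 libraries at day 0, against 45.8, 40.0 and 25.4 CPM at day 3. Des, the muscle filament desmin, had 1634, 1631 and 1773 CPM, and Myod1, the myoblast regulator MyoD, had 109, 158 and 82.4 CPM. Myf5, a related myoblast regulator, went the other way, with 36.6, 31.4 and 58.0 CPM. Markers of differentiating myocytes, Myog, Mymk, Mymx, Myh3, Acta1, Tnnt3 and Ckm, were also present at day 0. Each was highest in the Cry1 library, and Myog had 58.5, 179 and 35.3 CPM. Of 14 endothelial and blood markers, 4 were at 0 in all 3 libraries, and the sum of all 14 was 5.27, 4.88 and 5.48 CPM. Of 12 adipocyte markers 5 were at 0 and the sum was 98.0, 102 and 55.3 CPM. Of 12 neural and glial markers 5 were at 0 and the sum was 279, 236 and 392.1 CPM, most of it Tubb3, a neuronal tubulin. Of 12 osteoblast and chondrocyte markers 4 were at 0, and Spp1 (osteopontin) alone had 4372, 3866 and 4699.8 CPM.

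The targeted RNAs followed the labels. Cry1 (ENSMUSG00000020038, mm10 chr10:85131700-85185064, minus strand) had 20.5 CPM in the control, 8.28 in the Cry1 knockdown and 13.1 in the Cry2 knockdown. Its log2 ratio to the control was -1.29 [-1.78, -0.85] in the Cry1 knockdown, and it was also lower in the Cry2 knockdown, at -0.64 [-1.06, -0.25]. Cry2 (ENSMUSG00000068742, chr2:92403646-92434043, minus strand) had 19.2, 28.7 and 7.25 CPM in the same order. It was lower in the Cry2 knockdown, at -1.38 [-1.92, -0.90], and higher in the Cry1 knockdown, at 0.58 [0.25, 0.91]. The targeted RNAs stood at 0.409-fold and 0.383-fold of the control, so a part of each was still present.

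The study's other genes were also measured. Ccnd1, the G1 cyclin that drives myoblasts into S phase, had 241, 237 and 233 CPM, with log2 ratios of -0.02 [-0.12, 0.08] and -0.05 [-0.15, 0.06] in the Cry1 and Cry2 knockdowns. Both intervals include no difference. Bclaf1 had 198, 238 and 182 CPM, with log2 ratios of 0.26 [0.16, 0.37] and -0.12 [-0.24, -0.01], small but outside counting error in both. Tmem176b, a membrane protein gene, had few counts, 16, 38 and 6. Its log2 ratio was 1.21 [0.39, 2.21] in the Cry1 knockdown and -1.15 [-2.92, 0.15] in the Cry2 knockdown. Its neighbour Tmem176a, which overlaps it on the other strand, had 2, 21 and 6 counts. Both genes were 2-fold or more higher in the Cry1 knockdown at all 3 days, Tmem176b with log2 ratios of 2.71 and 2.26 and Tmem176a with 2.57 and 2.82 at days 3 and 5. The library kit does not keep strand, so reads of this gene pair cannot be assigned to one strand where they overlap.

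The 5 promoters here belong to genes that were high in the Cry1 knockdown, or to Cry1, and 4 of them are shown because they hold one of the motifs searched. They come from RefSeq (GRCm38.p6) and run from 250 bases before the RefSeq start to 50 after it, 5′ to 3′ on the gene's strand. Capitals mark the letters CAGCTG or CAGGTG, the E-box forms that myogenic factors bind, CACGTG, the E-box form that CLOCK and BMAL1 bind, or the MEF2 consensus, each searched on both strands. The windows are Myog at chr1:134289754-134290053 (plus), Acta1 at chr8:123894726-123895025 (minus), Rbm24 at chr13:46418050-46418349 (plus), Myh1 at chr11:67199852-67200151 (plus) and Cry1 at chr10:85185005-85185304 (minus).
Myog: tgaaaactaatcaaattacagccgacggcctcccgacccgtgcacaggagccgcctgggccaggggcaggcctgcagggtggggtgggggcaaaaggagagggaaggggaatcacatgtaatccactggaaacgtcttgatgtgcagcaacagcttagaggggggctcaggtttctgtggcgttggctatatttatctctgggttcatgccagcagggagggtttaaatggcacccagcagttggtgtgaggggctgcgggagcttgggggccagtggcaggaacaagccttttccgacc
Acta1: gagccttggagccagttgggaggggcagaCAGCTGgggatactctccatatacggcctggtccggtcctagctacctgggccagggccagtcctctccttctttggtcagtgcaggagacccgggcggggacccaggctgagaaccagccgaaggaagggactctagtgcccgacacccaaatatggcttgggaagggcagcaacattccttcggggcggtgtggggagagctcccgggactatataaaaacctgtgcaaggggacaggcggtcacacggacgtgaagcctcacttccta
Rbm24: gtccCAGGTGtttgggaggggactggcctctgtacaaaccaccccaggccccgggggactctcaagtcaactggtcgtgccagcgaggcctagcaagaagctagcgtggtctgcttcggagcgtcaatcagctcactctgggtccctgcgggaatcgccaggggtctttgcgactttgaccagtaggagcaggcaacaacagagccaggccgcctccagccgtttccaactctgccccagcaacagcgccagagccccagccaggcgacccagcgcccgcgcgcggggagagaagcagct
Myh1: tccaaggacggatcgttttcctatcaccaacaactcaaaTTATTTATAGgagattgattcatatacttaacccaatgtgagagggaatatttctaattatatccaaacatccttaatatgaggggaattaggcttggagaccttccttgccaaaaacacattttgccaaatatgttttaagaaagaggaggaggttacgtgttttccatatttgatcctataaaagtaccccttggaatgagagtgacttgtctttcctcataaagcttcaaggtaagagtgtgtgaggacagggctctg
Cry1: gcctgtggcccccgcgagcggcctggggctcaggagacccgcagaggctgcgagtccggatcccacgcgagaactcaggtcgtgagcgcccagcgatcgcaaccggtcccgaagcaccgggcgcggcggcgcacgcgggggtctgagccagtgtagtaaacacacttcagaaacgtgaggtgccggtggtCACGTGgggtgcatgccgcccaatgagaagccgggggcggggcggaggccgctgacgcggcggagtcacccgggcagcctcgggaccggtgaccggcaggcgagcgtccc
The Acta1 window holds CAGCTG at position -221, the Rbm24 window CAGGTG at -246, the Myh1 window the MEF2 consensus at -211 and the Cry1 window CACGTG at -60, while these letters are not in the Myog window. They are also not in the windows of Actc1, Myh3, Mef2c, Cry2 and Dbp, which are not printed. Windows of Per1 and Mb were searched too and are not printed. One Per1 window holds CACGTG at -166, and another holds the MEF2 consensus at -15 and CAGGTG at 41. Overlapping Mb windows hold CAGCTG at -133 and -193, and a further Mb window holds none of these letters. Over all 27025 genes with a window, 18.3% hold CAGCTG, 22.6% CAGGTG, 8.09% CACGTG and 3.7% the MEF2 consensus. Of the measured sarcomere genes, 37 matched a window, and 40.5% of them hold CAGCTG, 32.4% CAGGTG, 5.41% CACGTG and 21.6% the MEF2 consensus. Of the 24 among them that were 2-fold or more higher in the Cry1 knockdown, 37.5% hold CAGCTG and 20.8% the MEF2 consensus. A match, or the lack of one, describes only the exact letters searched. It says nothing of other site forms or of binding in these cells.

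Against the control, 342 of 12812 genes were at least 2-fold higher in the Cry1 knockdown (2.67%), and 282 were at least 2-fold lower (2.2%). For the Cry2 knockdown 235 genes were higher (1.83%) and 203 lower (1.58%). Most of these genes had low counts. From 1 to 5 CPM, 17.0% and 14.6% of genes were past 2-fold in the Cry1 and Cry2 ratios, but above 100 CPM only 0.793% and 0.352% were. Over all measured genes the median log2 ratio was 0.02 and -0.01.

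**Figure D1:**
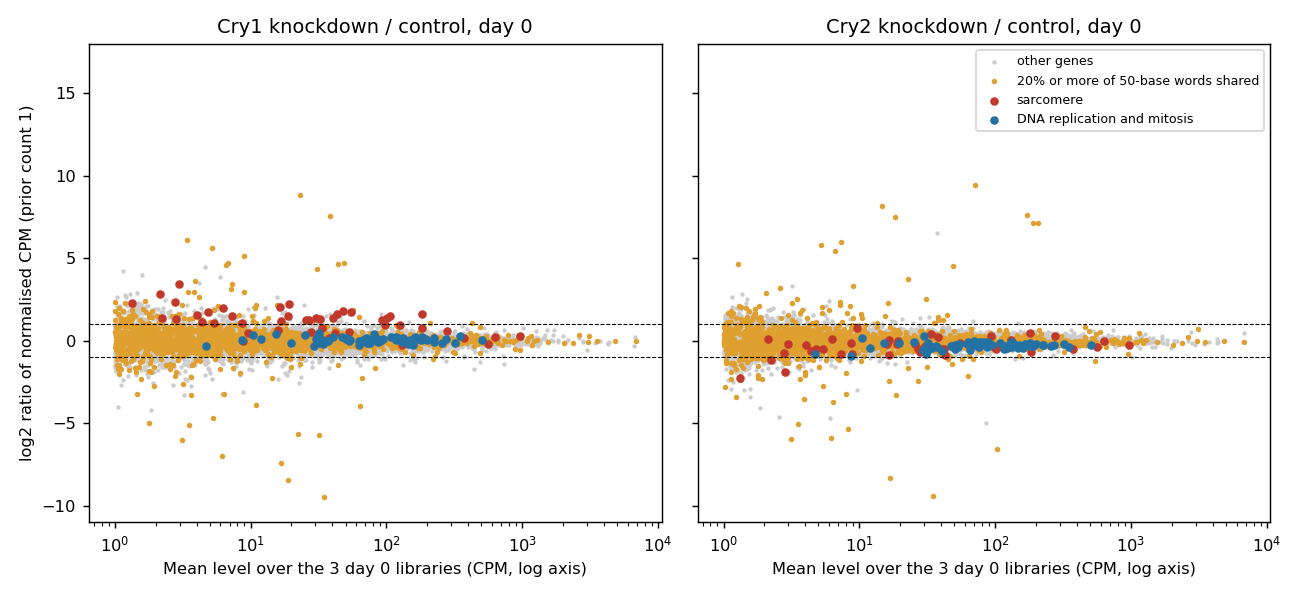
Log2 ratio of each knockdown to the control at day 0 against the mean level over the 3 libraries (CPM, log axis), 1 point per measured gene, with dashed lines at 2-fold. Sarcomere genes lie above the line in 29 of 46 cases in the Cry1 panel, DNA replication and mitosis genes lie just below 0 in the Cry2 panel, and many of the most extreme points are genes that share 50-base words with another gene.

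Growing Cry1 knockdown myoblasts already carried more muscle RNA than the control. Of the measured factors of the myogenin, Mef2 and late myogenic list, 15 of 15 were higher and 6 of them by 2-fold or more. Of all measured genes 53.6% and 2.67% were, and the list's median log2 ratio was 0.95. Myog, myogenin, chosen after its values were seen, had 58.5 CPM in the control, 179 in the Cry1 knockdown and 35.3 in the Cry2 knockdown, a ratio of 3.06-fold in the Cry1 knockdown and a log2 ratio of 1.61 [1.45, 1.78]. The control at day 3 had 681 CPM, so the Cry1 knockdown at day 0 lay between the growing and the differentiated control. Rbm24 (ENSMUSG00000038132, chr13:46418434-46431095, plus strand), an RNA-binding protein of muscle splicing, had 5.85, 38.0 and 3.38 CPM. It was 6.36-fold higher in the Cry1 knockdown, a log2 ratio of 2.67 [2.21, 3.22]. Mef2c, a partner of myogenin, had 8.78, 28.4 and 13.5 CPM, and was higher in both knockdowns, at 1.68 [1.27, 2.14] and 0.62 [0.13, 1.13]. Klhl41, a protein that keeps thin filaments stable, had 9.51, 32.0 and 11.9 CPM. Tead1 and Celf2, the members of highest level, had log2 ratios of only 0.02 and 0.27 in the Cry1 knockdown.

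The sarcomere list had the highest median of the muscle lists. Of 60 genes listed, 46 were measured. Of these, 43 were higher in the Cry1 knockdown and 29 by 2-fold or more, against 53.6% and 2.67% of all measured genes. None was lower by 2-fold, and the median was 1.26. For 41 of the 46 the counting interval lay above no difference, where 17.1% of all measured genes did so. The other 14 genes were under 1 CPM, 4 of them at 0 in all 3 libraries. The 1 CPM filter uses all 3 libraries, so a weak gene of a muscle list can be measured through its Cry1 level alone. Neb, the thin filament ruler nebulin, had 8.63, 40.7 and 8.38 CPM, a log2 ratio of 2.22 [1.83, 2.67]. Myh1, a fast myosin heavy chain that shares 29.8% of its 50-base words with other genes, had 8.49, 36.1 and 4.67 CPM. Myom1, the M-band protein myomesin, had 3.07, 12.4 and 3.38 CPM. In all of these the Cry1 library stood alone on the high side and the control and Cry2 libraries were close or the Cry2 library was lowest. Skeletal actin, Acta1, had 116, 363 and 72.4 CPM. This gene and the next pair were picked with their values known: Actc1, cardiac actin, had 27.8, 85.9 and 15.2 CPM, and Myh3, embryonic myosin, had 70.1, 184 and 49.96 CPM. Members also made in myoblasts differed little: Tpm1 (tropomyosin) had 943, 1130.5 and 804 CPM and Flnc (filamin C) 599, 700 and 589 CPM, and Cryab, Tpm3 and Xirp2 were the 3 members not higher. In bulk RNA a larger share of differentiating cells and more of this RNA in each cell cannot be told apart.

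**Figure D2:**
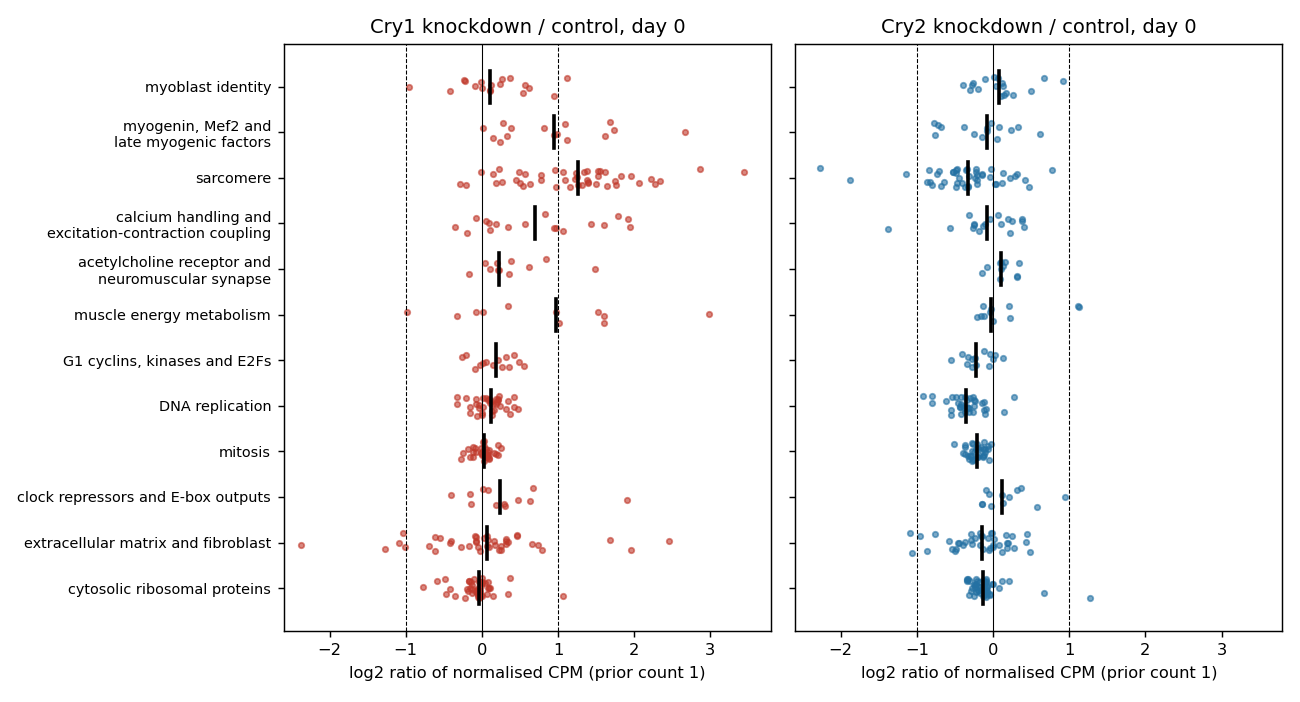
Log2 ratio to the control at day 0 for the measured members of 12 gene lists, 1 point per gene, with the list's median as a black bar and dashed lines at 2-fold. The medians of the sarcomere and of the myogenin and late factor lists stand at 1.26 and 0.95 in the Cry1 panel and at -0.34 and -0.08 in the Cry2 panel, and the DNA replication and mitosis medians are below 0 in the Cry2 panel alone.

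Other muscle lists also held higher genes in the Cry1 knockdown, with exceptions. In the calcium handling list 15 of 18 members were higher and 6 by 2-fold or more, against 53.6% and 2.67% of all measured genes, with a median of 0.70. Srl, the calcium store protein sarcalumenin, had 23.0, 70.3 and 22.4 CPM, Hrc, another calcium-binding protein of the store, 3.07, 12.3 and 4.03 CPM, and Cacna1s, the voltage sensor of muscle, 2.63, 10.4 and 3.55 CPM. Atp2a2, the calcium pump that all cells use, had 440, 417 and 458 CPM. In the muscle energy list 8 of 11 were higher, with a median of 0.97, but the sum was not, at 738 CPM in the Cry1 knockdown against 747 in the control. Its members of highest level were lower, with Eno3, muscle enolase, at -0.07 and Ak1, adenylate kinase, at -0.33, and among members of at least 10 CPM the median was -0.026. Mb, myoglobin, had 2.63, 21.7 and 2.26 CPM, though 32% of its exon length overlaps another gene, and Ckm, muscle creatine kinase, had 4.54, 13.3 and 4.03 CPM. Of the acetylcholine receptor list only Chrng, the embryonic receptor subunit, was past 2-fold, at 22.8, 64.3 and 20.6 CPM, and Chrna1 had 595, 683 and 743 CPM.

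The listed myoblast identity and fusion genes differed less, by their medians, between the Cry1 knockdown and the control. The 18 measured identity genes had a median of 0.11 and the 18 fusion and adhesion genes a median of 0.10. Mymk and Mymx, fusion genes outside these 18, did differ. They had 33.5, 72.6 and 25.6 CPM and 4.24, 8.58 and 2.58 CPM, highest in the Cry1 knockdown. Pax7, the satellite cell factor, had 5.9999, 13.2 and 11.4 CPM and was the only identity gene past 2-fold. Msc, a repressor of MyoD, had 18.3, 9.32 and 15.2 CPM. Cdh15 and Itga7, surface proteins of myoblasts, had 424, 546 and 464 CPM and 930, 876 and 1112 CPM.

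**Figure D3:**
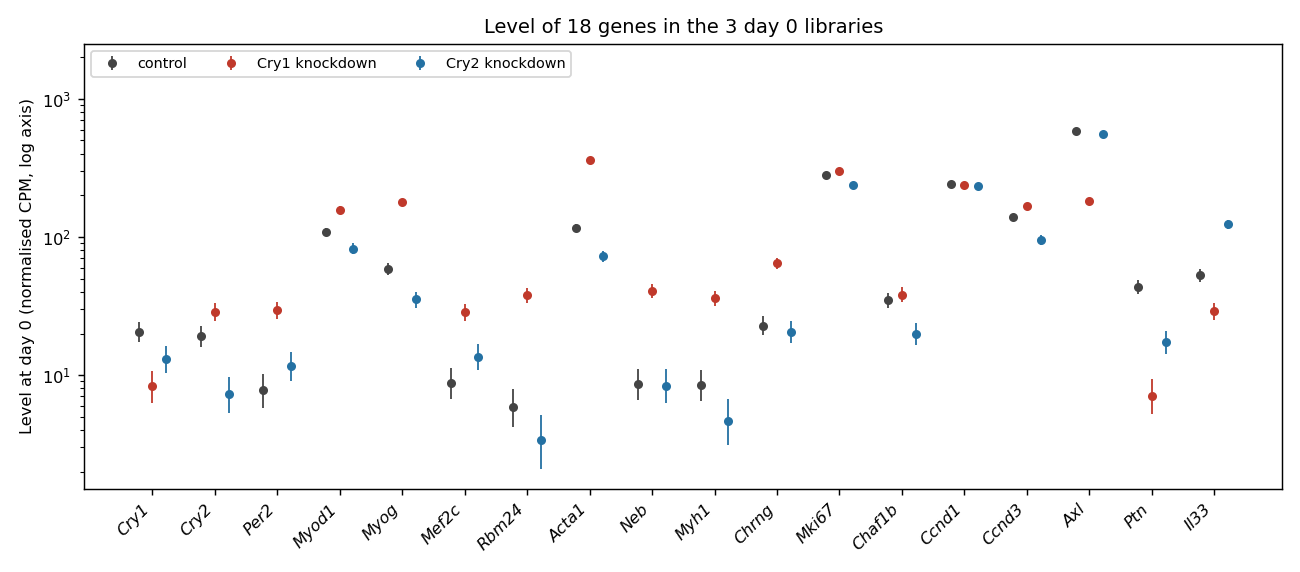
Level of 18 genes in the 3 day 0 libraries (normalised CPM, log axis), with 95% exact Poisson intervals that cover counting error only. Muscle genes from Myog to Chrng are highest in the Cry1 knockdown, Axl and Ptn are lowest there, and Chaf1b and Ccnd3 are lowest in the Cry2 knockdown.

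The muscle genes were read against the differentiation course itself, an analysis added after the data were seen. In the Cry2 knockdown, whose libraries do not enter the Cry1 ratio, 289 measured genes were 4-fold or more higher at day 3 than at day 0. Of these, 114 (39.4%) were 2-fold or more higher in the Cry1 knockdown than in the control at day 0, and 11 (3.81%) were 2-fold or more lower, against 2.67% and 2.2% of all measured genes, with a median of 0.75. The set is not independent of this ratio, because the 1 CPM filter uses all 3 day 0 libraries. A gene low in the Cry2 library can pass it through a high Cry1 level, and how far this raised the share was not tested. The 398 genes 4-fold or more lower at day 3 had a median of -0.04 in the same ratio, with 17 (4.27%) higher and 49 (12.3%) lower by 2-fold. Summed over the 46 measured sarcomere genes, the level at day 0 was 4040 CPM in the control, 5829 in the Cry1 knockdown and 3552 in the Cry2 knockdown, and 33252 in the control at day 3. The Cry1 library at day 0 thus held 17.5% of the day 3 control level, and the day 0 control 12.2%.

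**Figure D4:**
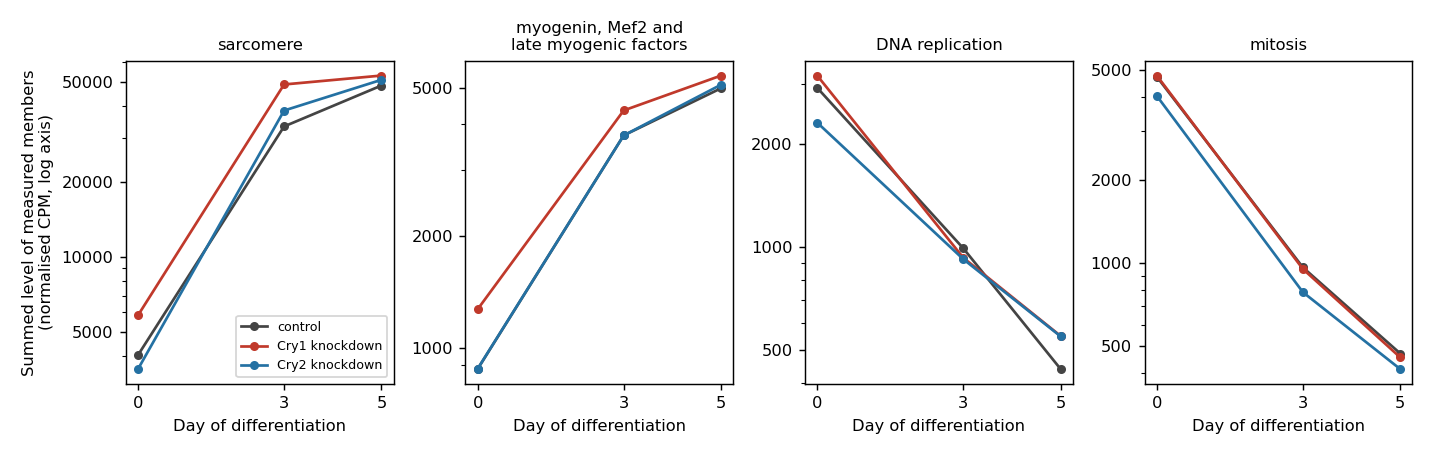
Summed level (normalised CPM, log axis) of the measured members of 4 lists at days 0, 3 and 5, 1 library per point. The Cry1 knockdown has the highest sarcomere sum at each day, and the Cry2 knockdown has the lowest DNA replication and mitosis sums at day 0.

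Cell cycle genes of the Cry1 knockdown differed from the control by small ratios, and the replication and G1 lists leaned higher. The 36 DNA replication genes had a median of 0.11 and the 35 mitosis genes a median of 0.03, and none was past 2-fold in either direction. Rrm2, which makes DNA precursors, had 348, 432 and 269 CPM, and Top2a, a topoisomerase of dividing cells, 534, 544 and 444 CPM. Cdkn1a, the cell cycle inhibitor p21, had 320, 445 and 332 CPM, a log2 ratio of 0.48 [0.40, 0.56] in the Cry1 knockdown. Of the 35 mitosis genes 12 were lower and 23 higher, against 46.4% and 53.6% of all measured genes. Intervals lay below no difference for 5 (14.3%) and above it for 4, against 14.1% and 17.1% of all measured genes. Ccnb1 was at -0.18 [-0.30, -0.05]. Of the 36 DNA replication genes 25 were higher and 11 lower. Their intervals lay above no difference for 10 and below it for 1 (2.78%), against the same 17.1% and 14.1%. Of 14 G1 genes 10 were higher and 4 lower, with a median of 0.18 and none past 2-fold. Intervals of the G1 genes lay above no difference for 7 and below it for 2 (14.3%).

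Among clock genes, Per2 stood out in the Cry1 knockdown. Per2 (ENSMUSG00000055866, chr1:91415982-91459324, minus strand), a clock repressor and E-box target, had 7.76, 29.4 and 11.6 CPM, with log2 ratios of 1.90 [1.48, 2.39] and 0.57 [0.05, 1.12]. Of 12 genes in the clock repressor and E-box output list, 9 were higher in the Cry1 knockdown but only Per2 by 2-fold. Of all measured genes 53.6% and 2.67% were, and the list's median was 0.23. Tef, an output factor, had 92.6, 148 and 89.1 CPM, and Dbp, another, 5.85, 9.17 and 11.4 CPM. Clock itself had 101, 118 and 106 CPM. In the Cry2 knockdown no gene of the repressor and output list was past 2-fold. The second clock list, activators and cryptochrome regulators, had 15 measured genes and medians of 0.13 and 0.10 in the Cry1 and Cry2 knockdowns. In each knockdown 1 of its genes was 2-fold higher, at 1.09 and 1.24, and none was 2-fold lower.

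Secreted and signalling genes were among the other differences of the Cry1 knockdown. Pappa, a protease that frees insulin-like growth factors, had 10.98, 49.0 and 14.7 CPM. Postn, the matrix protein periostin, had 6.44, 25.4 and 6.45 CPM. In the Notch list Dll1, a Notch ligand, had 6.59, 19.4 and 5.96 CPM, and Heyl, a Notch target, 26.0, 62.7 and 30.9 CPM. The proteases of mast and cytotoxic cells Mcpt8 with 5.27, 22.04 and 4.19 CPM and Gzme with 5.27, 24.7 and 2.74 CPM, were also higher, while the blood and endothelial markers summed as given above; their part in the result was not tested. Mylk4, a muscle kinase, and Trim72, a membrane repair protein, completed the 12 highest ratios with Hmgn2 and Rbm12b1, which share sequence and are given below.

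Several receptors and secreted proteins were lower in the Cry1 knockdown. Axl (ENSMUSG00000002602, chr7:25757273-25788705, minus strand), a receptor tyrosine kinase, had 587, 182 and 559 CPM, a log2 ratio of -1.69 [-1.79, -1.60]. Stra6, the retinol uptake receptor, had 11.6, 1.18 and 13.5 CPM, the lowest ratio of the named genes at -3.14 [-4.55, -2.24]. In both genes only the Cry1 library was low. Ptn, the growth factor pleiotrophin, had 43.3, 7.10 and 17.4 CPM, and F3, the coagulation starter tissue factor, 30.3, 6.07 and 11.8 CPM, and both were also lower in the Cry2 knockdown. Ptn had log2 ratios of -2.58 and -1.31 and F3 of -2.29 and -1.35 to the control library that both knockdowns share. Olfml2a, Ptgfr, Mrgprf, Prl2c2, Rerg, Itgb7, Il1rn and Ifitm1 were also among the 12 lowest ratios, from -2.31 to -1.76. Prl2c2 shares 85.6% of its words with other genes and is uncertain: it had 83, 20 and 63 counts alone, and 615 in the control against 320 in the Cry1 knockdown with its copies.

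The extracellular matrix list did not move as one in the Cry1 knockdown. Of 41 members, 22 were higher and 19 lower, where 53.6% and 46.4% of all measured genes were, with a median of 0.06. By 2-fold or more, 5 were lower and 3 higher, where 2.2% and 2.67% of all measured genes were. The 3 collagen VI chains were all lower: Col6a3 had 630, 261 and 571 CPM, and Col6a1 and Col6a2, chosen after their values were seen, had log2 ratios of -1.005 and -1.03. In the Cry2 knockdown the 3 chains had log2 ratios of -0.14, -0.77 and -1.06 in the same order. Dcn, decorin, had 20.05, 9.32 and 28.2 CPM. Fn1, fibronectin, had 5791, 6790.2 and 7884 CPM. Of 15 measured chemokine and cytokine genes 12 were lower and 4 of them by 2-fold, against 46.4% and 2.2% of all measured genes, among them Ccl2 with 15.2, 6.66 and 9.03 CPM and Cxcl5 with 27.4, 10.7 and 15.6 CPM. In the Cry2 knockdown 11 of these 15 were lower and 4 higher, against 51.6% and 48.4% of all measured genes, and none was 2-fold lower. The list's medians were -0.24 and -0.36 in the Cry1 and Cry2 knockdowns, both taken against the same control library.

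Part of the Cry1 difference came back at later days, where each day has its own control. Of the 342 genes higher at day 0, 63 (18.4%) were 2-fold or more higher at day 3 and 51 (14.9%) at day 5, against 2.32% and 2.33% of all measured genes. Of the 282 lower genes, 82 (29.1%) and 80 (28.4%) were 2-fold or more lower, against 2.91% and 3.02%. Among genes of at least 20 CPM, 4 (10.3%) and 2 (5.13%) of 39 higher genes and 16 (35.6%) and 14 (31.1%) of 45 lower genes did so at days 3 and 5. Of all genes at that level, 0.326% and 0.483% were 2-fold or more higher and 0.81% and 0.849% lower at those days. At all 3 days 17 genes were 2-fold higher and 38 lower. Axl had log2 ratios of -1.69, -1.63 and -1.69 at days 0, 3 and 5. Chosen after their values were seen, Nras, a growth signalling GTPase, had -1.47, -1.36 and -1.41, and Emp1, a membrane protein, had -1.41, -1.20 and -1.41, with 949, 358 and 914 CPM at day 0. The sarcomere median shrank from 1.26 at day 0 to 0.62 and 0.23, and that of the myogenin and late factor list from 0.95 to 0.29 and 0.03. Myog had 1.61 at day 0 and then 0.23 and 0.06.

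Cell cycle genes were lower in the Cry2 knockdown, by small ratios. Of 36 DNA replication genes 34 were lower than in the control, where 51.6% of all measured genes were, none by 2-fold, with a median of -0.36. For 28 of them the counting interval lay below no difference, where 12.4% of all measured genes did so. This share depends on level, because intervals are narrower at higher counts. Of the 50 ribosomal protein genes, 36 (72%) also had an interval below no difference in the Cry2 knockdown, and 4 had one above it. Chaf1b, which loads histones onto new DNA, had 34.8, 38.3 and 19.99 CPM in the control, Cry1 and Cry2 libraries, a Cry2 log2 ratio of -0.80 [-1.13, -0.48]. Orc6, part of the origin complex, had 43.3, 50.7 and 28.0 CPM, at -0.62 [-0.91, -0.35]. Pcna, the replication clamp, had 242, 230 and 202 CPM. Only Gins1 and Gins4, chosen after their values were seen, were higher, at 0.14 and 0.28.

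Mitosis and G1 genes were lower as well. All 35 mitosis genes were lower in the Cry2 knockdown, where 51.6% of all measured genes were, with a median of -0.21 and none past 2-fold. Cenpe, a kinetochore motor, had 129, 132 and 90.6 CPM, and Ccnb1, mitotic cyclin B1, had 163, 145 and 126 CPM. Of 14 G1 genes 11 were lower, against the same 51.6% of all measured genes, with a median of -0.23. Ccnd3, another D-type cyclin, had 139, 167 and 94.6 CPM, at -0.55 [-0.70, -0.40], whereas Ccnd1 and Cdk4 were at -0.05 and -0.04. The summed replication level was 2931, 3184 and 2317 CPM and the summed mitosis level 4716, 4763 and 4023 CPM, so the Cry2 library was at 79.0% and 85.3% of the control. In the Cry1 knockdown libraries, which do not enter the Cry2 ratio, 363 genes were 4-fold or more lower at day 3 than day 0. Their median Cry2 log2 ratio at day 0 was -0.19, with 249 (68.6%) lower, against 51.6% of all measured genes. This set is not independent of the Cry2 ratio, because the 1 CPM filter uses all 3 day 0 libraries. A gene can pass the filter through a high Cry1 level, and how far this changed the share was not tested.

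Muscle genes as a whole were not higher in the Cry2 knockdown. Of the 46 sarcomere genes 36 were lower than in the control and 10 higher, where 48.4% of all measured genes were higher, with a median of -0.34. Past 2-fold were 3, Actn2, Myh4 and Csrp3, all lower, where 1.58% of all measured genes were 2-fold lower. Csrp3 had 4, 23 and 0 counts and was measured only through the Cry1 library, so its Cry2 ratio rests on almost no counts. The 15 late myogenic factors had a median of -0.08, with Myog at -0.73 [-0.97, -0.49]. Set directly against each other, without the control, more genes were past 2-fold than in either comparison with it: 429 genes were 2-fold or more higher in the Cry2 than in the Cry1 knockdown (3.35%) and 416 lower (3.25%). In this comparison 43 of 46 sarcomere genes were lower in the Cry2 knockdown, where 53.5% of all measured genes were, 32 by 2-fold, with a median of -1.74, and 34 of 36 replication genes were lower, with a median of -0.47.

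Single genes also stood apart in the Cry2 knockdown. Il33, an alarm cytokine, had 52.8, 29.0 and 123 CPM, a log2 ratio of 1.22 [1.04, 1.41], and stood low in the Cry1 library and high in the Cry2 library. Nipal3 had 3.37, 2.96 and 10.3 CPM. Adgrg1, an adhesion receptor chosen after its values were seen, had 21.2, 18.8 and 57.9 CPM. Lower were Efna5, an ephrin ligand, with 8.05, 9.32 and 2.58 CPM, and Svep1, a matrix adhesion protein, with 18.4, 15.5 and 7.90 CPM. Fbln7, a fibulin, had 10.8, 3.99 and 3.87 CPM and was low in both knockdowns, so there the control library stood apart. Zfp469, Thumpd2 and Trp53rkb were lower by 1.23 to 1.51 on the log2 scale. Jag1, a Notch ligand, had 14.3, 15.2 and 7.74 CPM, Lpl, lipoprotein lipase, 56.8, 75.1 and 32.1 CPM, and Tagln, an actin-binding protein of which 68% of the exon length overlaps another gene, 158, 206 and 84.0 CPM.

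Of the 235 genes higher in the Cry2 knockdown at day 0, 36 (15.3%) were 2-fold or more higher at day 3 and 42 (17.9%) at day 5, against 2.29% and 2.66% of all measured genes. Of the 203 lower genes, 41 (20.2%) and 38 (18.7%) were again 2-fold lower, against 2.97% and 2.79%. Among the 15 lower genes of at least 20 CPM, 4 (26.7%) were 2-fold lower at day 3 and 1 (6.67%) at day 5. Of all genes at that level, 1.19% and 0.705% were. At day 5, 6 of the 15 were lower at all, against 46.8% of all genes at that level, and their median was 0.04. At all 3 days 9 were higher. The 15 lower at all days included Cry2 itself, F3 at -1.35, -1.63 and -1.45, and Svep1 at -1.21, -2.04 and -2.23. Over days 0, 3 and 5 the replication medians were -0.36, -0.25 and 0.07, and the mitosis medians -0.21, -0.29 and -0.20.

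Most other lists had medians near 0 at day 0, with exceptions. For the counts below, 53.6% of all measured genes were higher and 46.4% lower in the Cry1 knockdown, with 2.67% higher by 2-fold. In the Cry2 knockdown 48.4% were higher and 51.6% lower. The 15 mitochondrially encoded genes had medians of 0.47 and 0.70 in the Cry1 and Cry2 knockdowns, with 14 and 15 higher, and sums of 6511, 8707 and 11399 CPM. Genes that share sequence, given at the end, enter the Cry2 values. The 3 measured proliferins, hormones of the prolactin family, had medians of -0.91 and 0.21, and the 4 measured adipocyte markers medians of -0.54 and -0.81. The 50 ribosomal protein genes had medians of -0.04 and -0.13 in the Cry1 and Cry2 knockdowns, with 45 of 50 lower in the latter. Glycolysis and hypoxia genes had medians of -0.19 and 0.08, with 21 of 28 lower in the Cry1 and 21 of 28 higher in the Cry2 knockdown. Scd1, a fatty acid desaturase, had 798, 426 and 959 CPM. Heat shock, endoplasmic reticulum chaperone, p53 target, amino acid stress and interferon lists had medians between -0.20 and 0.21 in both knockdowns, and Hspa1a, a heat shock protein, was the only gene of these 5 lists past 2-fold. The 12 measured imprinted genes had medians of 0.60 and -0.03, with 10 higher in the Cry1 knockdown and 3 of them by 2-fold. Of these, H19, a fetal noncoding RNA, had 1349, 2137 and 1054 CPM, and Peg10 77.6, 131 and 47.2 CPM, both highest in the Cry1 and lowest in the Cry2 library.

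Some of the largest ratios came from genes whose sequence is shared with other genes. Of the measured genes, 1830 (14.3%) share 20% or more of the 50-base words of their longest transcript with another gene. They made up 26.3% and 25.5% of the genes higher and lower in the Cry1 knockdown, and 34.0% and 37.4% of those in the Cry2 knockdown. In the Cry2 library of day 0, 6 mitochondrial genes had at least 273 counts where the other day 0 libraries had at most 31: mt-Co2 had 28, 31 and 3784 counts, mt-Atp6 had 17, 25 and 3176, mt-Co3 had 26, 28 and 3474, mt-Atp8 had 7, 10 and 678, mt-Nd4l had 1, 3 and 338, and mt-Nd3 had 0, 0 and 273. Other mitochondrial genes did not differ in this way, since mt-Cytb had 10071, 12435 and 10955 counts and mt-Nd1 had 6807, 10149 and 8186. Of these 6, 5 share 98.0% to 100% of their words with another gene. mt-Atp8 shares none, though 21.1% of its length overlaps another gene. The Cry2 libraries of days 3 and 5 did not show this surplus. There mt-Co2 had 61 and 56 counts, against 38 and 53 in the control libraries of those days.

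Adding copies did not close the day 0 gaps of these mitochondrial genes, since the mt-Co2 sum was 91, 116 and 3855 counts. Among nuclear genes with copies, Ppia, cyclophilin A, had 997, 725 and 27 counts, while its copy Gm10123 had 1, 1 and 1320. Summed with all genes that share its words, Ppia had 1040, 823 and 1470 counts. Gapdh, a glycolytic enzyme, had 226, 833 and 93 counts alone and 2042, 2635 and 1851 with its copies. Hmgn2, a chromatin protein, had 22, 473 and 118 counts alone and 390, 541 and 179 in sum. Vcp, a protein-unfolding ATPase, had 4204, 5028 and 1605 counts alone and 4839, 5678 and 2159 in sum, so it was lower in the Cry2 library either way. Ratios of such genes are uncertain, and Rbm12b1, Zfp955b, Zfp932, H3f3c and Rsph3b, which the naming rule also selects, belong with them.

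**Figure D5:**
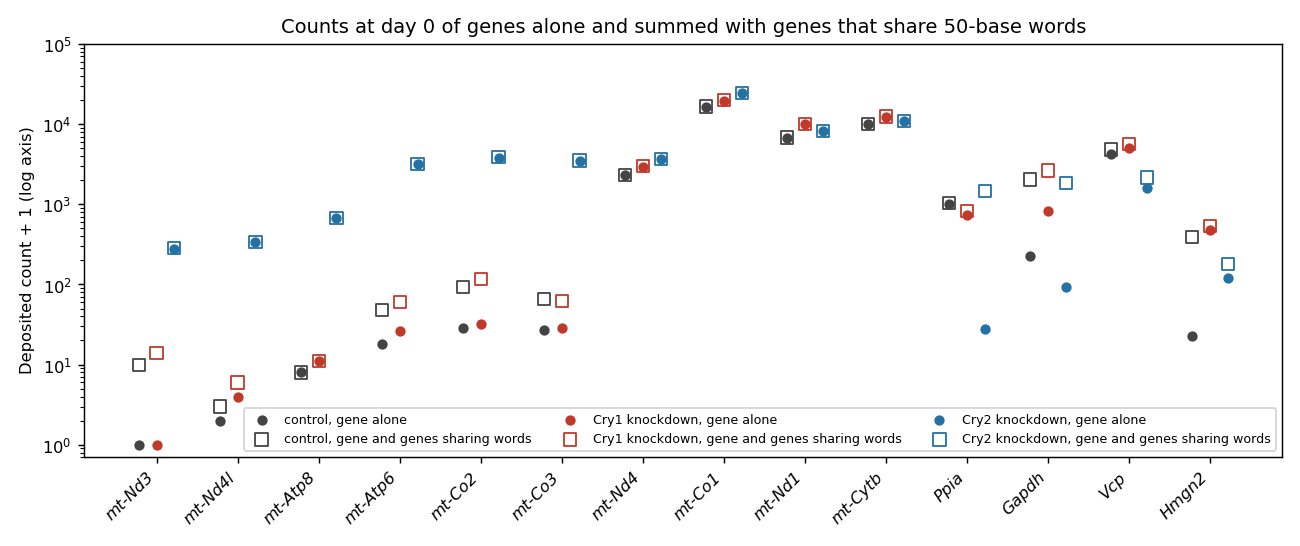
Deposited counts at day 0, plus 1, on a log axis, for 14 genes alone (points) and summed with the genes that share their 50-base words (squares). The 6 mitochondrial genes are high in the Cry2 library alone whether or not copies are added, whereas the gaps of Ppia and Gapdh are much smaller once copies are added.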

How the data were processed

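RNA of 3 day 0 cultures was sequenced after poly(A) selection with a TruSeq RNA v2 kit, which does not keep strand, per the labels' protocols. The authors deposited raw counts per gene. Per the submitters' processing notes they used CASAVA 1.8, HISAT2 2.0.2 and featureCounts 1.4.6 with mm10. Of 47728 gene IDs, 47223 matched GENCODE M21, which gave names and coordinates.

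Counts were scaled with TMM factors from edgeR 4.0.16 (R 4.3.3) to CPM. Genes with a mean of at least 1 CPM over the 3 libraries, 12812 of 20574 with a count, were measured. A log2 ratio adds a prior count of 1 to each library. Intervals are exact, Poisson for a level and Clopper-Pearson for a ratio, at 95%, and cover counting error only. Reads without molecular identifiers are not independent molecules. Whether the libraries come from separate cultures beyond their labels is not given in the sources used here. Genes were marked as sharing sequence when 20% or more of the 50-base words of their longest transcript stood in another gene. The 41 lists held 963 entries, of which 961 matched. Members and lists were chosen with earlier results of these data known.

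Named were the study's genes, the 12 largest and 12 smallest ratios per knockdown with a mean of at least 5 CPM and an interval that leaves out 1, and per list the 2 members of highest level and the 3 largest ratios. This gave 214 genes, and others are said to be chosen after their values were seen. The others not marked so in the report are Mki67, Myod1, Myf5, Cdh15, Mymk, Mymx, Tnnt3, Actn2, Myh4, Csrp3, Cryab, Tpm3, Xirp2, Hspa1a, Gm10123 and mt-Nd1. The scripts (Python 3.11.15, pandas 2.3.3, scipy 1.17.1) were tested on simulated data. Alternatives changed the scaling, the prior count, the filter, the fold and the genes that share sequence. Some genes that the rule selects are not reported here.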

Additional observations from a re-analysis of the deposited data

How the results depend on the processing

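No paired analysis was possible because the comparison is of day 0 alone, where each genotype has 1 library, so no library could be left out either. A fit over all 3 days with day as a block was not run. Counts of genes past 2-fold depend on how low counts are treated. In the Cry2 knockdown a prior count of 5 left 123 genes higher and 96 lower. With no filter on low counts the numbers higher and lower were 2715 and 939 for Cry1 against control, 2123 and 980 for Cry2 against control, and 2251 and 1385 for Cry2 against Cry1. With a mean of at least 10 CPM they were 68 and 75, 31 and 25, and 125 and 100 in the same order, and at a 1.5-fold threshold 822 and 844, 653 and 643, and 1091 and 1041. Without genes that share sequence, an alternative chosen after seeing the data, 155 genes were higher and 127 lower in the Cry2 knockdown. With a prior count of 5, the share of day 0 Cry1 lower genes that were lower again was 18.8% at day 3 and 15.2% at day 5, and the share of Cry2 higher genes that were higher again at day 5 was 8.94%.

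Sign changes of list medians were counted only where the main median was clearly off no difference. Among those medians the sign changed in 3 cases, all at a mean of at least 10 CPM, where fewer genes enter. These were muscle energy metabolism in the Cry1 knockdown at -0.026, clock repressors and E-box outputs in the Cry2 knockdown at -0.030, and the insulin-like growth factor axis in the Cry2 knockdown at 0.084. The sarcomere and DNA replication medians of both knockdowns kept their sign under every alternative run. So did the late myogenic median of the Cry1 knockdown and the mitosis median of the Cry2 knockdown. The mitosis median of the Cry1 knockdown and the late myogenic median of the Cry2 knockdown were too close to no difference to be counted. Depth limits genes under 5 CPM most, and 1 library per genotype limits every value.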
